A study of Mus musculus with 18 samples.

Results

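Interferon response genes were followed in mouse urinary bladder after injury by cyclophosphamide. The set holds 40 gene names, and its members were found by symbol in the deposited table of gene counts, which lists 60750 features, 46333 of them named genes. Of the 40 names 39 were listed, since Rigi was not listed and the same gene appeared under its older symbol Ddx58. All 39 passed the filter on low counts and were among the 19323 genes tested. The members were chosen by name for their link to interferon, with earlier results of these data known. In the study, whole bladders of female BALBc mice aged 8 weeks, all wild type, were sequenced to learn how extra dietary vitamin A affects regrowth of the bladder lining after cyclophosphamide (CP). There were 18 libraries in 6 groups of 3.

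CP was given once into the peritoneum at 150 mg/kg, and controls received saline. The 6 groups were CP with collection after 1 day on the vitamin A-enriched diet, the same on the normal diet, CP with collection after 3 days on the vitamin A-enriched diet, the same on the normal diet, saline with collection after 1 day on the vitamin A-enriched diet, and the same on the normal diet. The enriched diet, with 566081 UI retinyl-acetate per kg per the labels, began 1 week before injection, while the series description names retinyl palmitate as its form. No saline mice were collected at 3 days among these libraries, so the comparison of 3 days after CP with saline also differs in collection day. Mice were kept 3 to a cage and cages are not given per library, so cage and group cannot be told apart. In whole bladder, a change in the number of cells of a type and a change in RNA per cell cannot be told apart.

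Type I interferons bind a receptor whose kinases activate a transcription factor complex that contains STAT2 and IRF9 and binds the interferon-stimulated response element (ISRE) in the promoters of antiviral genes. Interferon gamma acts mainly through a different element, the gamma-activated site (GAS), in genes such as Irf1, the guanylate-binding proteins and the immunoproteasome. Many members can also be switched on by IRF family factors downstream of nucleic acid sensors, so the set is read as a sign of sensing of nucleic acids or of interferon in a tissue. In the bladder, CP metabolites excreted in urine kill urothelial cells and bring in leukocytes.

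The promoters of 8 members are shown because between them they carry both kinds of element named above and because these genes stand for the members that moved and those that did not. Each runs from 250 bases before to 50 bases after the RefSeq start of transcription (GRCm38.p6), written 5′ to 3′ on the strand of the gene. Capitals mark matches to the ISRE core (GAAA, any 2 bases, GAAA) or the GAS core (TTC, any 3 bases, GAA), searched on both strands with overlaps allowed.
Isg15, chr4:156200769-156201068, minus strand: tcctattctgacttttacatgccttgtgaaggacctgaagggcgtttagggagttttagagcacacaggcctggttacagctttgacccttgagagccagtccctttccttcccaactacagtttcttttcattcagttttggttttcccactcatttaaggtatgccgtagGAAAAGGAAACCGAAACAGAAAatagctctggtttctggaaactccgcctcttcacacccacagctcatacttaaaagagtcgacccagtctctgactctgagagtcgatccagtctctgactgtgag
Bst2, chr8:71537423-71537722, minus strand: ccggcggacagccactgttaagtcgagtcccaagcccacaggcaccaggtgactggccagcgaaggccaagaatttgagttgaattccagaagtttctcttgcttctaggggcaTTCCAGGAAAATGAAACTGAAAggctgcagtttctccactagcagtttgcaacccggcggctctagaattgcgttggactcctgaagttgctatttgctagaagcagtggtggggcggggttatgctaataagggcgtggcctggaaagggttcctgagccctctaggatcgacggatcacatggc
Ifit3, chr19:34583279-34583578, plus strand: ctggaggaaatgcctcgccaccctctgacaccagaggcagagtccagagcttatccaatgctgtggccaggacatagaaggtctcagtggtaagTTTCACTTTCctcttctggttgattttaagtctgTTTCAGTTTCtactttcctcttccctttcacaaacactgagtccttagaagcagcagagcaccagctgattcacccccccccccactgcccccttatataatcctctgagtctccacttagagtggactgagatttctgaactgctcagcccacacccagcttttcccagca
Ifit3b, chr19:34607707-34608006, plus strand: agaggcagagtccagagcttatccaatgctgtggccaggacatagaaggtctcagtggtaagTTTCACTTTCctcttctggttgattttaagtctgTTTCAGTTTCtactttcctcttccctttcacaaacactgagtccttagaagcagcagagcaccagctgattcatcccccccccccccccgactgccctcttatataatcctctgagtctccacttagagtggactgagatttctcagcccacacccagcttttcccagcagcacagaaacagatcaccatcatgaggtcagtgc
Oas1a, chr5:120907476-120907775, minus strand: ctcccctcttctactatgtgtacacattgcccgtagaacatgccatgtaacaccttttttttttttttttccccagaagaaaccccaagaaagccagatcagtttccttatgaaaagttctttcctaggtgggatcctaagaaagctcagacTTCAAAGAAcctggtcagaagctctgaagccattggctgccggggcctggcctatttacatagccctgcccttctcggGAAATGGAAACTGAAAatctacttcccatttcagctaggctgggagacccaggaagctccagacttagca
Psmb8, chr17:34197945-34198244, plus strand: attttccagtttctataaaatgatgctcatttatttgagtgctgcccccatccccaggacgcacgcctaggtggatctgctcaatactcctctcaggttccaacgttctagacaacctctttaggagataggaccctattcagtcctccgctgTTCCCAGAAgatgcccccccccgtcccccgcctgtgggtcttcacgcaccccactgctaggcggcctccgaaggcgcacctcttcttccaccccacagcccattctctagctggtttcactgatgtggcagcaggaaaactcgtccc
Cxcl10, chr5:92348840-92349139, minus strand: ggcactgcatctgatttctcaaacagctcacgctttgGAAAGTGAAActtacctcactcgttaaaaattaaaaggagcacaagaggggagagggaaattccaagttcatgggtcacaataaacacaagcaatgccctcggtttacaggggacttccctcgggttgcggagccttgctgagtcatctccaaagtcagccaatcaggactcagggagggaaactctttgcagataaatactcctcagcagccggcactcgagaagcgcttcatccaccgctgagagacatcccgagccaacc
Irf1, chr11:53769764-53770063, plus strand: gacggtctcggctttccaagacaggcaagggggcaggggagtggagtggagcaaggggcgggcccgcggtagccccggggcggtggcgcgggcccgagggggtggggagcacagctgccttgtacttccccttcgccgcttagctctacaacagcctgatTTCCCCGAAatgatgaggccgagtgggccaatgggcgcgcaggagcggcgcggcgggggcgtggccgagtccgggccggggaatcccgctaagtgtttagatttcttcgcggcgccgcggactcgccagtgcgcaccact

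RefSeq promoters were matched for 30 of the 39 listed members, with 34 promoters in all. The entries not matched were Zbp1, Oas2, Mx1, Mx2, Dhx58, Usp18, Ifi27l2a, Rtp4 and Parp14. An ISRE core stood in 16 of the 34 promoters (47.1%), against 3.44% of the 32851 mouse promoters of the same length, and a GAS core in 7 of 34 (20.6%), against 8.30%. In Isg15 the run of capitals holds 3 overlapping ISRE cores, starting at -78, -72 and -66 from the start site. Bst2 holds a GAS core at -136 that overlaps ISRE cores at -130 and -124. Oas1a holds a GAS core at -98 and ISRE cores at -20 and -14, while Psmb8 and the first Irf1 promoter hold a GAS core and no ISRE core. The Ifit3 and Ifit3b promoters, of neighbouring duplicated genes, agreed at 259 of the 260 bases aligned to each other, with 40 bases of each set against gaps or beyond the ends of the other, and in each the ISRE cores lie 34 bases apart. The members were chosen for their link to interferon, so these higher shares are not a result of these data. A match of letters is a description of the window, not a binding site.

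Counts per library ranged from 19439887 to 34431039 over named genes. Levels are given as CPM, counts scaled to a total of 1000000, and differences as log2 ratios with CP over saline, 3 days over 1 day, or vitamin A over normal diet, with p-values of edgeR's quasi-likelihood test adjusted over all genes tested. Markers of the labelled tissue were present in every library. Summed urothelial markers (uroplakins and keratins) ranged from 6735 to 12098 CPM over the 18 libraries. On the normal diet smooth muscle markers summed to 11840 to 20270 CPM 1 day and 9971 to 18706 CPM 3 days after CP. Normal-diet saline libraries lay above these, at 24432 to 31199 CPM. On vitamin A the smooth muscle sums were 12148 to 22897 CPM at 1 day and 13457 to 26909 CPM at 3 days. These overlapped the vitamin A saline libraries, at 21322 to 31352 CPM. Macrophage and monocyte markers summed to 393 to 548 CPM 1 day after CP and 486 to 792 CPM 3 days after CP, against 279 to 487 CPM after saline. T and NK cell markers ran the other way, at 0.772 to 5.73 CPM 1 day and 3.10 to 5.89 CPM 3 days after CP, against 8.70 to 37.4 CPM after saline. Haemoglobin genes and Alas2 together stood at 23.8 to 117 CPM 1 day and 0.501 to 1.44 CPM 3 days after CP, against 75.7 to 247 CPM after saline. Whether these shifts in cell markers had a part in the changes below was not tested.

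Some libraries stood apart across the set. Among the vitamin A saline libraries, replicate 3 was highest of its group for 30 of the 39 members and replicate 2 was lowest for 30. Replicate 3 of that group also had the highest T and NK cell sum, 37.4 CPM against 11.4 and 11.0 CPM in replicates 1 and 2, and the highest sum of 14 antigen presentation genes, 2538 CPM against 1713 and 1553 CPM. Among normal-diet libraries 1 day after CP, replicate 2 was highest for 37 of 39 members and replicate 1 lowest for 35. The mean log2(CPM + 0.5) of the 39 members was 3.34, 4.26 and 3.80 in these 3 libraries, against 3.20, 3.08 and 3.11 in normal-diet saline libraries, so replicate 1 was the CP library nearest to saline.

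**Figure D1:**
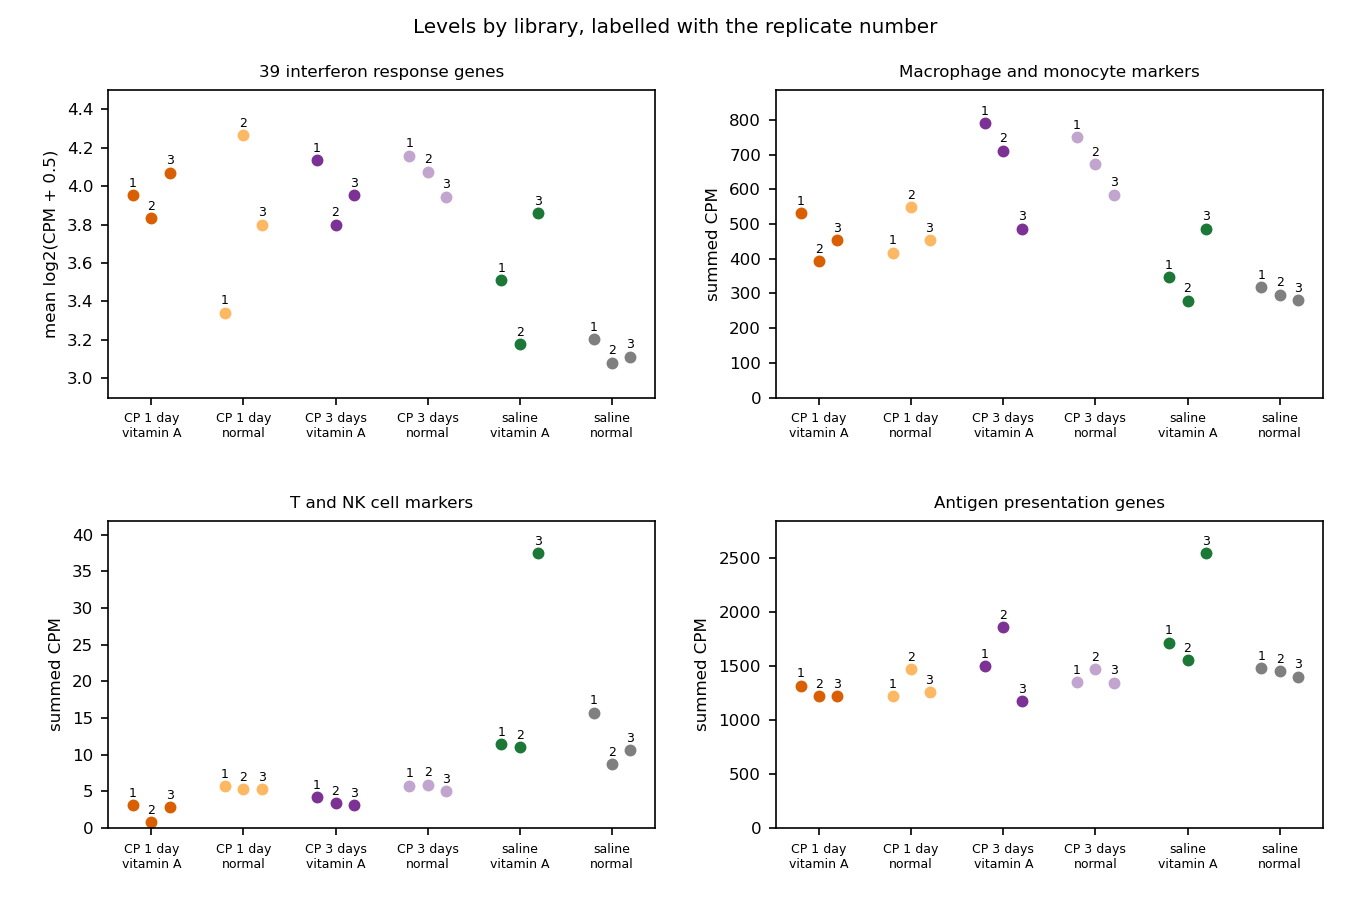
Levels in each of the 18 libraries, by group along the horizontal axis and with the replicate number beside each point, for the mean log2(CPM + 0.5) of the 39 members and the summed CPM of 3 marker lists. Replicate 3 of the vitamin A saline group is the highest saline library in all 4 panels, and replicate 1 of the normal-diet CP group at 1 day, at 3.34, is the lowest CP library for the members.

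CP raised a subset of the interferon response genes on the normal diet. At 1 day after CP, 14 of 39 members were higher than after saline and 0 were lower, where 7.26% of all genes tested were called higher and 4.49% lower. The median log2 difference of the 39 was 0.83, against 0.00 over all genes tested, and 34 lay above 0. Without replicate 2 of the CP group the count was 7 and without replicate 1 it was 20. The shares of all genes called either way in these fits were 7.05% and 7.84%, against 11.8% in the full fit. At 3 days after CP, 17 of 39 were higher and 0 were lower, where 6.74% of all genes were called higher and 3.30% lower, with a median log2 difference of 0.96. For 34 members every library 3 days after CP lay above every saline library, which held for 23.7% of all genes tested. At 1 day after CP this held for 20 members, against 20.8% of all genes.

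On the vitamin A diet, 1 day after CP, 11 of 39 were higher and 3 were lower than after saline, where 10.2% of all genes were called higher and 9.05% lower, and the members' median log2 difference was 0.39. Of the 3 lower members, Rsad2 and Psmb9 did not pass in the fit of only the groups compared and Cxcl9 was not tested there. At 3 days after CP, 5 of 39 were higher and 0 were lower, where 4.32% of all genes were called higher and 1.67% lower (5.98% either way), and the median log2 difference was 0.33. The count at 3 days changed with single libraries: it was 0 without saline replicate 2, 1 without saline replicate 1 and 2 without CP replicate 3. The shares of all genes called in these fits were 3.35%, 3.74% and 4.25%, against 5.98% in the full fit. At 1 day the count was 10 higher and 2 lower without saline replicate 3, 3 and 3 without saline replicate 2, 6 and 2 without saline replicate 1, and 5 and 1 without CP replicate 3. The shares of all genes called either way were 13.6%, 12.4%, 14.2% and 14.2% in that order, against 19.3% in the full fit. Within each diet the comparisons at 1 and 3 days share their saline libraries. Beside these counts, 4 of 11 macrophage and monocyte markers rose at 1 day and 8 of 11 at 3 days on the normal diet, and on vitamin A 3 rose and 1 fell at 1 day and 5 rose at 3 days, and their part in the members' changes was not tested.

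**Figure D2:**
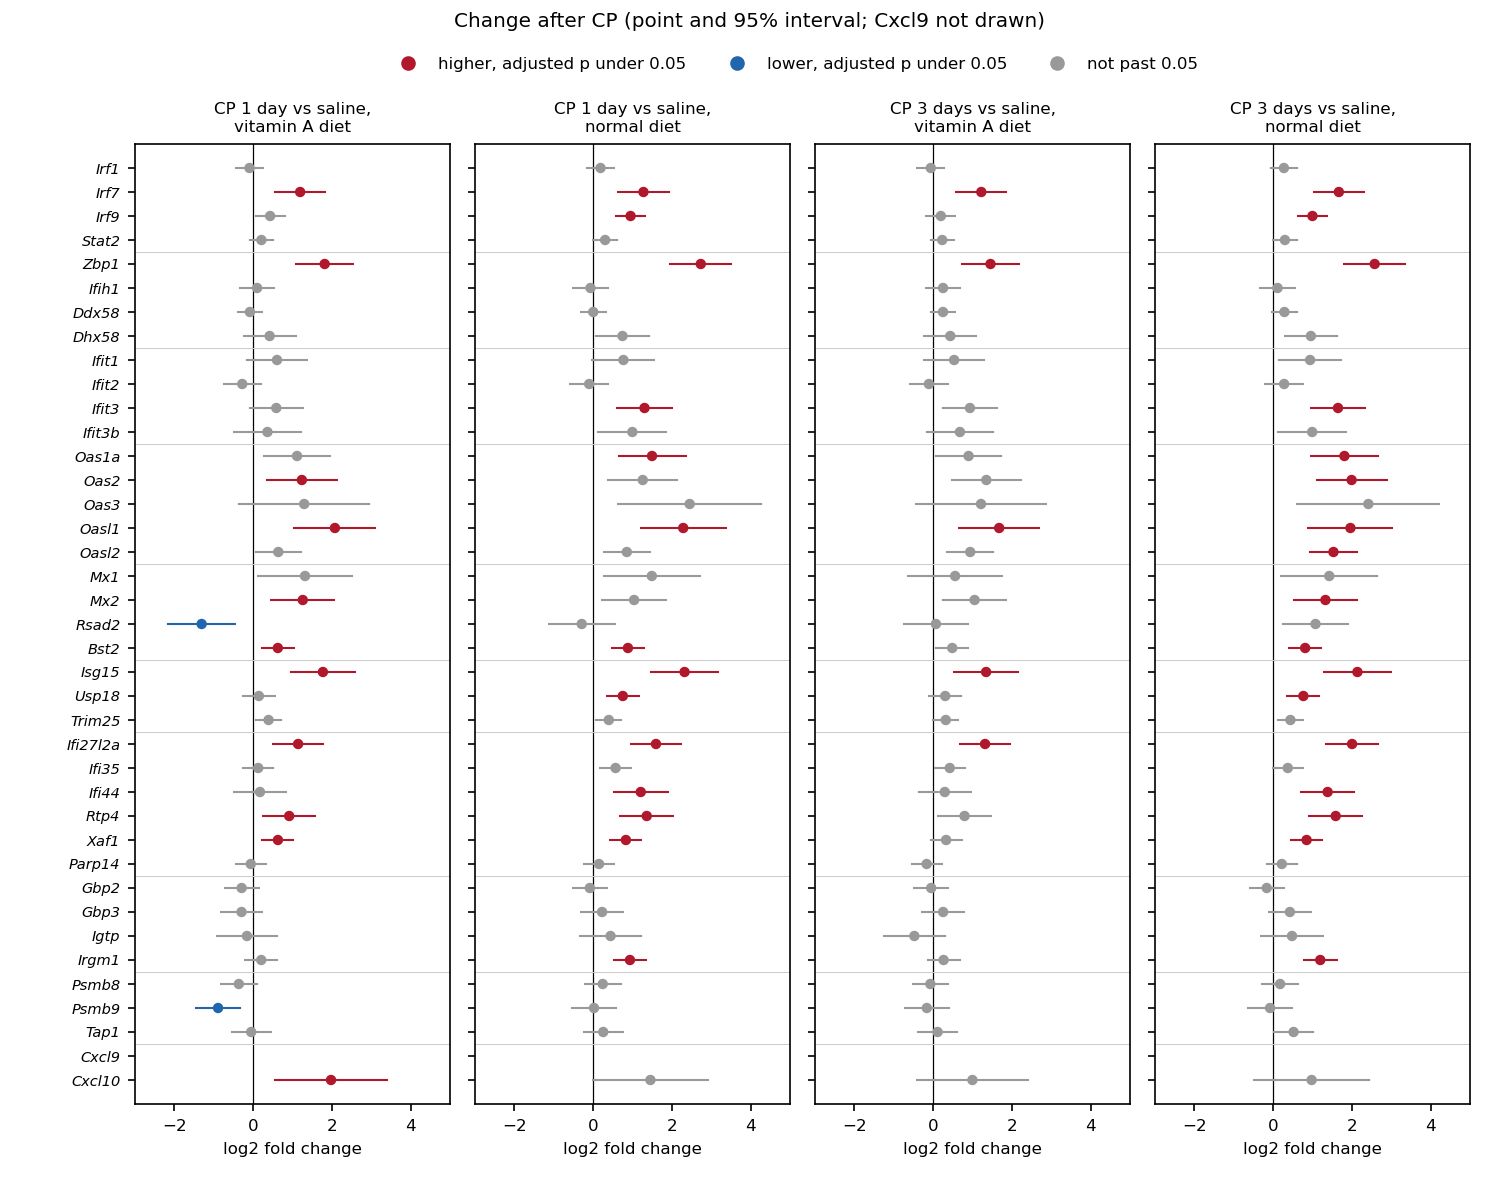
Log2 fold change with 95% interval of 38 members in 4 comparisons of CP with saline, ordered by role. Red points passed the threshold upwards, blue points downwards, and Cxcl9, with few counts, is not drawn. Isg15, Zbp1, Oasl1, Irf7 and Ifi27l2a are red in each panel, and of the antigen processing genes Psmb9 is blue 1 day after CP on vitamin A.

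Irf7, the factor that amplifies the type I response and is itself induced by interferon, had the largest log2 difference among the 4 transcription factors in each comparison of CP with saline (chr7:140843096-140846412, minus strand, GRCm39). In normal-diet mice Irf7 stood at 14.0, 37.5 and 20.2 CPM 1 day after CP and 41.1, 32.1 and 24.2 CPM 3 days after CP, against 10.6, 8.70 and 10.2 CPM after saline. With vitamin A in the diet Irf7 stood at 24.2, 27.6 and 33.7 CPM 1 day after CP and 28.4, 25.5 and 32.2 CPM 3 days after CP, against 12.7, 7.51 and 16.5 CPM after saline. Each CP library lay above each saline library of its diet, by 1 day (log2 1.28, SE 0.30, adjusted p = 0.0102 on the normal diet and log2 1.196, SE 0.30, adjusted p = 0.00883 on vitamin A) and by 3 days (log2 1.67, SE 0.31, adjusted p = 0.00151 on the normal diet, log2 1.22, SE 0.30, adjusted p = 0.0189 on vitamin A). The vitamin A call at 3 days was kept in 3 of 6 fits that left out a library. Irf9, the DNA-binding subunit of the complex that binds the ISRE, had 30.3, 48.3 and 36.4 CPM 1 day after CP and 45.037, 39.7 and 38.5 CPM 3 days after CP, against 19.5, 19.5 and 20.4 CPM after saline in normal-diet mice. These groups did not overlap (1 day log2 0.95, SE 0.18, adjusted p = 0.00159, 3 days log2 1.00, SE 0.18, adjusted p = 0.00107). On the vitamin A diet Irf9 differed by log2 0.43 at 1 day (adjusted p = 0.0917) and 0.20 at 3 days (adjusted p = 0.600).

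Stat2 and Irf1 passed the threshold in none of the 4 comparisons. Stat2, a subunit of the same complex, had 50.9, 69.4 and 53.4 CPM 1 day after CP and 54.4, 66.1 and 59.2 CPM 3 days after CP, against 45.6, 48.4 and 46.5 CPM after saline in normal-diet mice, and these CP libraries lay above saline by a small margin (1 day log2 0.30, interval 0.01 to 0.60, adjusted p = 0.178). In mice fed vitamin A Stat2 had 56.5, 63.7 and 59.4 CPM 1 day after CP and 67.4, 49.3 and 64.0 CPM 3 days after CP, against 44.1, 46.8 and 61.7 CPM after saline, and the groups overlapped. Irf1, a factor directly induced through GAS elements, had 38.5, 51.3 and 47.1 CPM 1 day after CP and 46.6, 51.6 and 52.7 CPM 3 days after CP, against 38.7, 43.6 and 37.8 CPM after saline in normal-diet mice, with overlap at 1 day and none at 3 days (log2 0.27, adjusted p = 0.339). In vitamin A mice Irf1 had 46.4, 48.1 and 49.5 CPM 1 day after CP and 45.9, 51.0 and 48.0 CPM 3 days after CP, against 44.4, 38.9 and 67.7 CPM after saline, where saline replicate 3 was the highest of all 18 libraries.

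Among the nucleic acid sensors Zbp1, which binds Z-form nucleic acid and can start necroptosis, had the largest rise of the set on the normal diet (chr2:173048405-173060715, minus strand). In normal-diet mice Zbp1 stood at 5.40, 17.7 and 8.72 CPM 1 day after CP and 8.79, 12.3 and 8.55 CPM 3 days after CP, against 1.90, 1.34 and 1.52 CPM after saline. With vitamin A in the diet Zbp1 stood at 11.7, 12.7 and 12.2 CPM 1 day after CP and 11.4, 8.25 and 8.59 CPM 3 days after CP, against 2.61, 2.61 and 5.04 CPM after saline. CP and saline libraries did not overlap on either diet, and Zbp1 rose at 1 day (log2 2.74, SE 0.37, adjusted p = 9.17e-05 on the normal diet, log2 1.82, SE 0.35, adjusted p = 0.00110 on vitamin A) and at 3 days (log2 2.58, SE 0.37, adjusted p = 0.000122 on the normal diet, log2 1.46, SE 0.34, adjusted p = 0.0143 on vitamin A). The vitamin A call at 3 days was lost without saline replicate 1 or 2. The RIG-I-like receptors, which sense viral RNA in the cytosol, did not pass the threshold. Log2 differences of Ddx58 (RIG-I) were -0.08 and 0.00 at 1 day and 0.25 and 0.28 at 3 days on the vitamin A and the normal diet in that order. Ifih1 (MDA5) lay between -0.07 and 0.25 in the 4 comparisons. Dhx58 (LGP2), their regulator, stood at log2 0.96 3 days after CP on the normal diet (adjusted p = 0.0634).

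**Figure D3:**
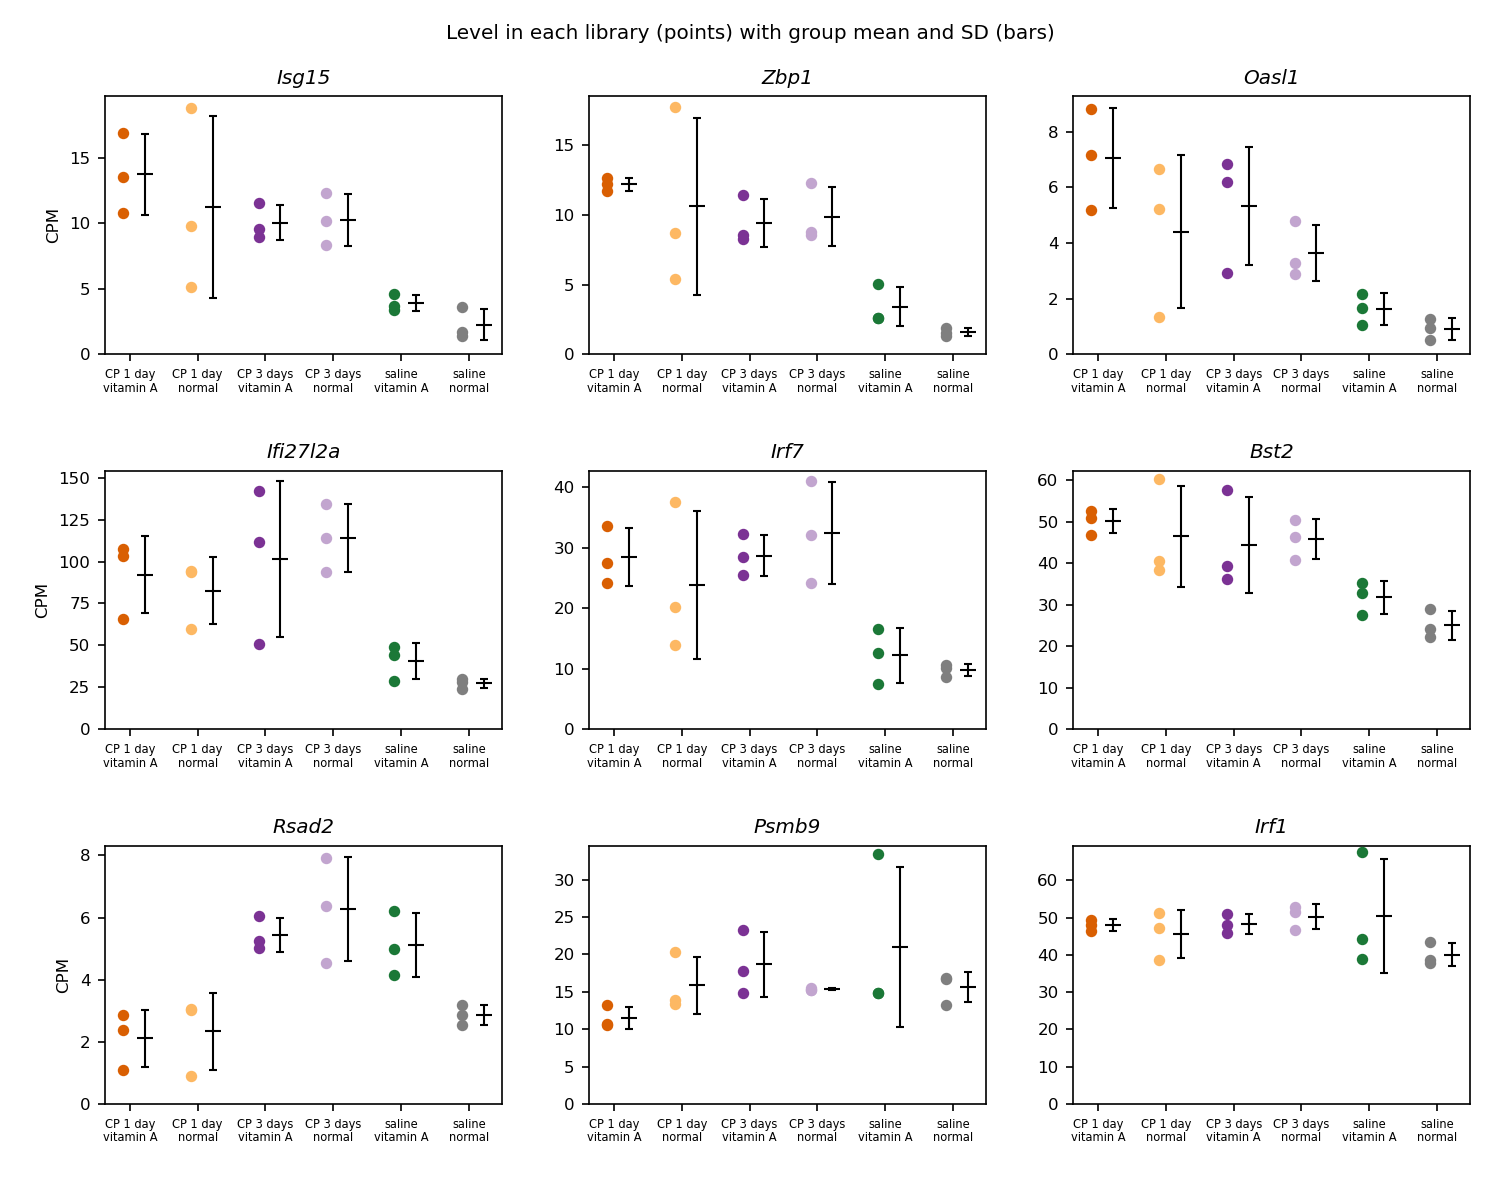
Level of 9 members in CPM in each library (points), with the group mean and SD (bar, n = 3), by group along the horizontal axis. Isg15, Zbp1, Irf7, Ifi27l2a and Bst2 separate CP from saline on each diet. For Ifi27l2a (50.6 against 49.0 CPM) and Bst2 (36.1 against 35.1 CPM) the gap is narrow at 3 days on vitamin A. Rsad2 has its lowest point, 0.908 CPM, 1 day after CP on the normal diet, and in Psmb9 and Irf1 the highest point is a vitamin A saline library at 33.4 and 67.7 CPM.

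Isg15, a ubiquitin-like protein attached to other proteins during the antiviral response, rose in each comparison of CP with saline (chr4:156283881-156285275, minus strand). In normal-diet mice Isg15 stood at 5.16, 18.8 and 9.82 CPM 1 day after CP and 12.3, 8.38 and 10.2 CPM 3 days after CP, against 3.61, 1.43 and 1.74 CPM after saline. In mice fed vitamin A Isg15 stood at 10.8, 13.6 and 16.9 CPM 1 day after CP and 9.004, 11.6 and 9.59 CPM 3 days after CP, against 4.65, 3.42 and 3.71 CPM after saline. No CP library reached down to a saline library, and Isg15 was higher at 1 day (log2 2.32, SE 0.40, adjusted p = 0.000894 on the normal diet, log2 1.77, SE 0.39, adjusted p = 0.00316 on vitamin A) and at 3 days (log2 2.14, SE 0.40, adjusted p = 0.00182 on the normal diet, log2 1.35, SE 0.38, adjusted p = 0.0447 on vitamin A). The vitamin A result at 3 days passed in 1 of the 6 fits that left out a library. Usp18, the protease that removes ISG15 and damps receptor signalling, had 27.4, 27.9 and 27.9 CPM 1 day after CP and 36.8, 22.9 and 27.2 CPM 3 days after CP, against 16.8, 15.1 and 17.3 CPM after saline in normal-diet mice. Usp18 rose there by log2 0.75 at 1 day (adjusted p = 0.0162) and 0.77 at 3 days (adjusted p = 0.0157), each call being kept in 4 of 6 fits that left out a library. Differences on vitamin A were 0.15 and 0.31, not past the threshold. Trim25, a ligase that acts on RIG-I, lay between log2 0.32 and 0.44 in the 4 comparisons and was not called.

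OAS enzymes sense double-stranded RNA and make the oligoadenylate signal that activates RNase L, and Oasl1 and Oasl2 are OAS-like members of the family. Oasl1, which in mice restrains Irf7 translation, had 1.34, 6.66 and 5.24 CPM 1 day after CP and 4.79, 2.88 and 3.28 CPM 3 days after CP, against 1.27, 0.956 and 0.518 CPM after saline in normal-diet mice. In vitamin A mice Oasl1 had 7.18, 5.20 and 8.80 CPM 1 day after CP and 6.86, 2.91 and 6.21 CPM 3 days after CP, against 1.68, 1.05 and 2.17 CPM after saline. CP and saline libraries did not overlap, though replicate 1 at 1 day on the normal diet, at 1.34 CPM, was close to the highest saline library at 1.27 CPM. Oasl1 rose at 1 day (log2 2.29, SE 0.51, adjusted p = 0.00675 on the normal diet, log2 2.08, SE 0.49, adjusted p = 0.00548 on vitamin A) and at 3 days (log2 1.96, SE 0.51, adjusted p = 0.0186 on the normal diet, log2 1.68, SE 0.49, adjusted p = 0.0478 on vitamin A). At 3 days the vitamin A result passed in 1 and the normal-diet result in 3 of 6 fits that left out a library.

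Oas1a, a synthetase, had 4.54, 8.88 and 5.16 CPM 1 day after CP and 10.4, 6.72 and 6.79 CPM 3 days after CP, against 2.15, 1.77 and 2.62 CPM after saline in normal-diet mice, with no overlap (1 day log2 1.497, SE 0.41, adjusted p = 0.0224, 3 days log2 1.81, SE 0.41, adjusted p = 0.00734). Of the 50-base windows of its transcript 57.6% also occur in that of its neighbour Oas1g, so its counts are uncertain, and its 1 day call was kept in 2 of 6 fits that left out a library. Oas2, a larger synthetase, had 5.496, 16.5 and 7.65 CPM 1 day after CP and 15.3, 20.3 and 15.5 CPM 3 days after CP, against 3.52, 2.96 and 5.79 CPM after saline in normal-diet mice. At 1 day it overlapped saline (log2 1.26, adjusted p = 0.0592), and at 3 days it did not (log2 1.99, SE 0.42, adjusted p = 0.00504). With vitamin A in the diet Oas2 had 12.1, 6.28 and 10.1 CPM 1 day after CP and 17.3, 5.58 and 7.96 CPM 3 days after CP, against 2.61, 3.77 and 5.502 CPM after saline, and it passed at 1 day (log2 1.24, SE 0.42, adjusted p = 0.0463) and not at 3 days (adjusted p = 0.0670), the call being kept in 2 of 6 fits that left out a library. Oasl2 rose 3 days after CP on the normal diet (log2 1.53, SE 0.28, adjusted p = 0.00146), and on vitamin A at 3 days its log2 was 0.94 (adjusted p = 0.0505). Oas3, the largest synthetase, had few counts and wide intervals, with log2 2.45 (interval 0.64 to 4.27, adjusted p = 0.0746) 1 day after CP on the normal diet.

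IFIT proteins bind viral RNA and block its translation, and of 4 members Ifit3 was called. In normal-diet mice Ifit3 had 4.73, 11.7 and 8.18 CPM 1 day after CP and 12.8, 9.85 and 9.76 CPM 3 days after CP, against 3.37, 4.06 and 2.56 CPM after saline. These libraries did not overlap, and the 1 day call was kept in 3 of 6 fits that left out a library (1 day log2 1.31, SE 0.33, adjusted p = 0.0153, 3 days log2 1.65, SE 0.33, adjusted p = 0.00338). On vitamin A its log2 differences were 0.59 at 1 day and 0.94 at 3 days (adjusted p = 0.221 and 0.103). Ifit3 shares 51.2% of its 50-base windows with Ifit3b, which shares 44.5% of its own with Ifit3, so the split of reads between them is uncertain. Ifit3b and Ifit1 were not called, with log2 of 0.99 and 0.94 3 days after CP on the normal diet. Ifit2 lay between -0.28 and 0.28 in the 4 comparisons.

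Bst2 (tetherin), which holds budding virus at the cell surface, had 38.5, 60.4 and 40.6 CPM 1 day after CP and 50.4, 46.3 and 40.9 CPM 3 days after CP, against 22.2, 29.0 and 24.2 CPM after saline in normal-diet mice. In mice fed vitamin A Bst2 had 52.7, 46.9 and 51.0 CPM 1 day after CP and 39.4, 57.7 and 36.1 CPM 3 days after CP, against 32.7, 27.5 and 35.1 CPM after saline. CP libraries lay above saline on each diet, though on vitamin A at 3 days the lowest, at 36.1 CPM, was close to the highest saline library at 35.1 CPM. Bst2 rose at 1 day (log2 0.88, SE 0.20, adjusted p = 0.00670 on the normal diet, log2 0.63, SE 0.20, adjusted p = 0.0306 on vitamin A) and at 3 days on the normal diet (log2 0.81, SE 0.20, adjusted p = 0.0128), and at 3 days on vitamin A the difference was 0.48 (adjusted p = 0.176). The vitamin A call at 1 day was lost in each of the 6 fits that left out a library, and the normal-diet call at 3 days in 3 of 6. Mx1 and Mx2, dynamin-like antiviral GTPases, are annotated as transcribed pseudogenes in the deposited table. Mx2 had 4.27, 3.81 and 5.92 CPM 1 day after CP and 3.10, 3.87 and 4.92 CPM 3 days after CP, against 2.44, 1.60 and 1.63 CPM after saline in vitamin A mice. It passed at 1 day there (log2 1.26, SE 0.38, adjusted p = 0.0261) and 3 days after CP on the normal diet (log2 1.33, SE 0.38, adjusted p = 0.0334), the first call being kept in 3 of 6 fits that left out a library and the normal-diet call in 0 of 6. Mx1 was not called, with log2 1.32 and 1.49 at 1 day on the vitamin A and the normal diet.

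Rsad2 (viperin), an enzyme that makes a chain-terminating nucleotide, fell 1 day after CP on vitamin A. In normal-diet mice Rsad2 had 0.908, 3.07 and 3.03 CPM 1 day after CP and 6.38, 7.92 and 4.55 CPM 3 days after CP, against 2.54, 2.87 and 3.17 CPM after saline. In vitamin A mice Rsad2 had 2.38, 2.88 and 1.09 CPM 1 day after CP and 5.25, 5.02 and 6.05 CPM 3 days after CP, against 6.22, 4.16 and 5.002 CPM after saline. On vitamin A all 3 libraries 1 day after CP lay below saline (log2 -1.31, SE 0.40, adjusted p = 0.0281), and at 3 days the groups overlapped (log2 0.07). The call at 1 day was lost without saline replicate 1 or CP replicate 3. On the normal diet the 1 day group overlapped saline (log2 -0.29) and the 3 day group lay above it (log2 1.07, adjusted p = 0.0958).

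Of the other induced genes Ifi27l2a, a small mitochondrial membrane protein strongly induced by type I interferon, rose in each comparison of CP with saline. In normal-diet mice it had 59.7, 94.4 and 93.8 CPM 1 day after CP and 134, 114 and 93.5 CPM 3 days after CP, against 29.7, 28.1 and 24.0 CPM after saline. With vitamin A in the diet it had 108, 65.7 and 103 CPM 1 day after CP and 112, 142 and 50.6 CPM 3 days after CP, against 49.0, 28.8 and 44.1 CPM after saline. CP libraries lay above saline on each diet, at 1 day (log2 1.60, SE 0.31, adjusted p = 0.00220 on the normal diet, log2 1.14, SE 0.30, adjusted p = 0.0121 on vitamin A) and at 3 days (log2 2.00, SE 0.31, adjusted p = 0.000306 on the normal diet, log2 1.32, SE 0.30, adjusted p = 0.0121 on vitamin A). On vitamin A at 3 days the lowest CP library, at 50.6 CPM, was close to the highest saline library at 49.0 CPM. The vitamin A call at 3 days was lost without saline replicate 2 or CP replicate 2. Its gene overlaps Ifi27 on the other strand, which held 21936 counts against 35777 for Ifi27l2a over all libraries, and the use of strand in counting is not given in the sources used here. Rtp4, a receptor transporter that binds RNA, had 8.27, 21.4 and 15.0 CPM 1 day after CP and 22.1, 18.9 and 13.3 CPM 3 days after CP, against 5.57, 6.55 and 5.24 CPM after saline in normal-diet mice, with no overlap (1 day log2 1.36, SE 0.32, adjusted p = 0.00970, 3 days log2 1.59, SE 0.32, adjusted p = 0.00359). The 1 day call was lost without CP replicate 2 or saline replicate 3. On vitamin A it passed at 1 day (log2 0.92, SE 0.32, adjusted p = 0.0495) in the full fit and in 1 of 6 fits that left out a library. Rtp4 overlaps Masp1 on the other strand, with 5945 counts for Rtp4 and 3192 for Masp1.

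Xaf1, a proapoptotic zinc finger protein, rose on the normal diet by log2 0.83 at 1 day and 0.85 at 3 days (adjusted p = 0.00725 and 0.00669), and on vitamin A by 0.63 at 1 day (adjusted p = 0.0231), a call kept in 2 of 6 fits that left out a library. Ifi44 rose on the normal diet, by 1.21 and 1.38 at 1 and 3 days (adjusted p = 0.0208 and 0.0101), with the calls kept in 3 and 4 of 6 fits that left out a library, and on vitamin A its values were 0.18 and 0.30. Ifi35 and the ADP-ribosyltransferase Parp14 were not called. Ifi35 lay between log2 0.13 and 0.57, its nearest adjusted p being 0.0501 1 day after CP on the normal diet, and Parp14 lay between -0.17 and 0.22.

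**Figure D4:**
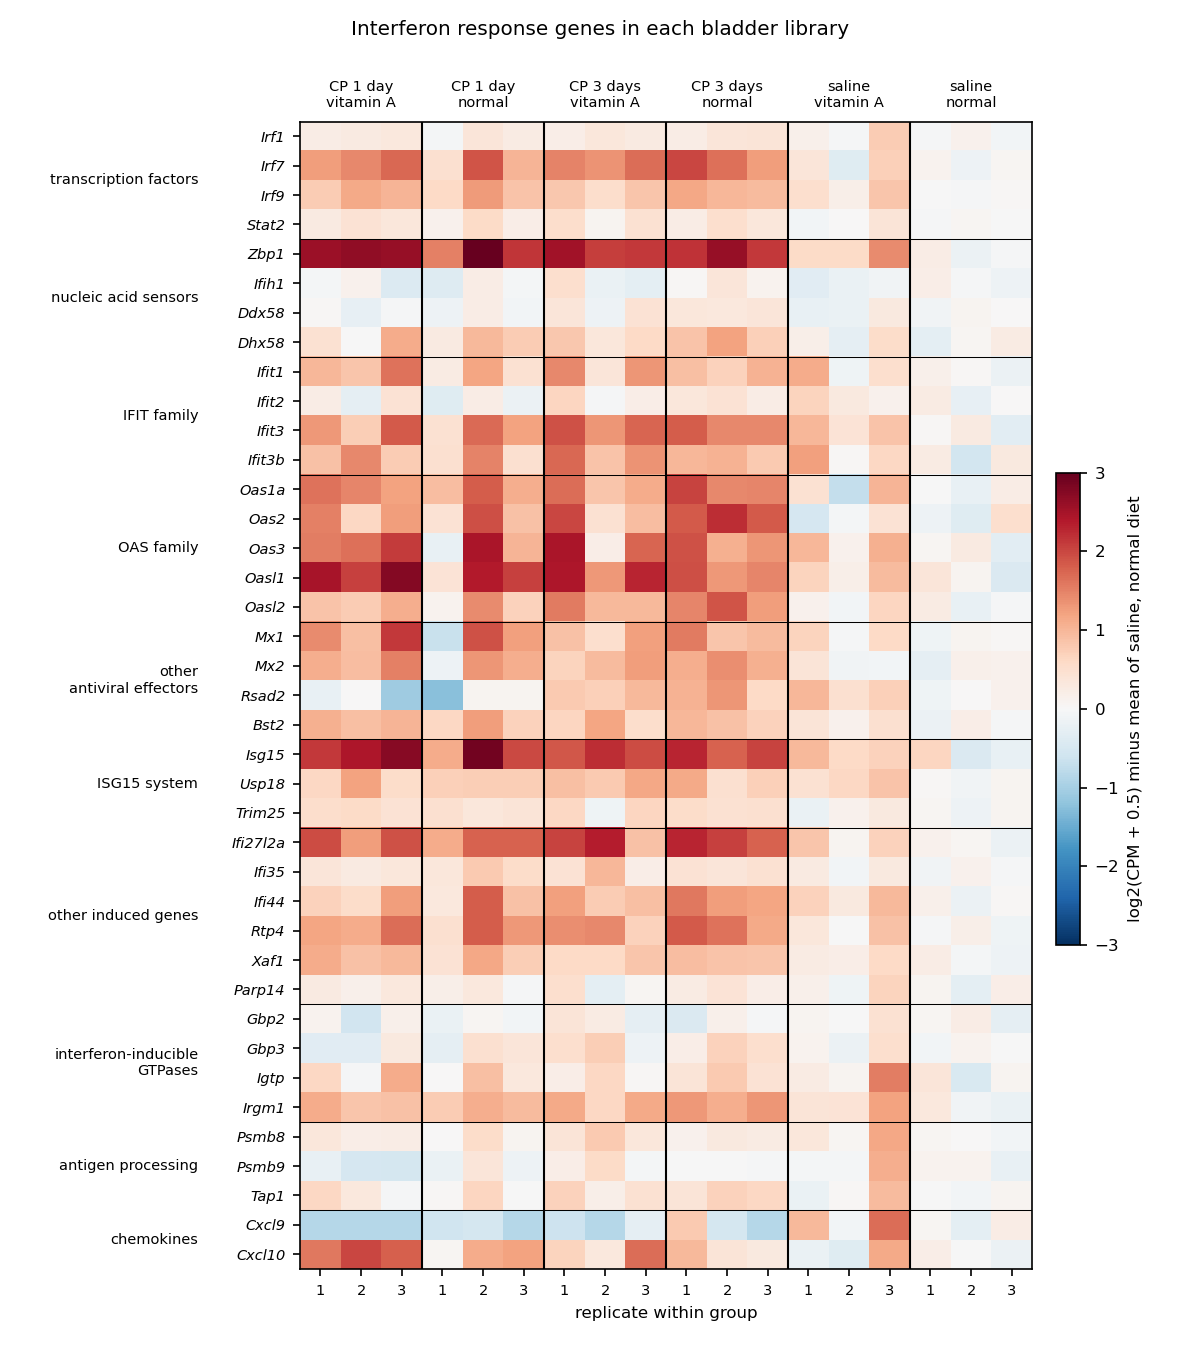
Log2(CPM + 0.5) of each of the 39 members in each library minus the mean of the normal-diet saline libraries, with genes grouped by role down the page and the 18 libraries grouped across it. Red cells are above that mean and blue cells below it. Irf7, Zbp1, Isg15 and Ifi27l2a are red in all 12 CP columns, and saline replicate 3 on vitamin A is red in the rows of Igtp, Psmb8, Psmb9, Tap1 and Cxcl9.

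Of the interferon-inducible GTPases, Irgm1 was the 1 of 4 called. In normal-diet mice Irgm1 had 30.9, 38.9 and 35.2 CPM 1 day after CP and 45.2, 39.3 and 46.2 CPM 3 days after CP, against 22.5, 16.6 and 15.8 CPM after saline, without overlap (1 day log2 0.94, SE 0.20, adjusted p = 0.00431, 3 days log2 1.196, SE 0.20, adjusted p = 0.000564). On vitamin A the values were log2 0.21 and 0.26. The guanylate-binding proteins Gbp2 and Gbp3 and the IRG protein Igtp were not called. Their log2 differences at 1 day on vitamin A were -0.29, -0.29 and -0.16 for Gbp2, Gbp3 and Igtp in that order.

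Psmb8 and Psmb9, catalytic subunits of the immunoproteasome, and Tap1, the peptide transporter, feed MHC class I, and 0 of the 3 rose. In mice fed vitamin A Psmb9 had 13.2, 10.7 and 10.6 CPM 1 day after CP and 17.8, 23.3 and 14.8 CPM 3 days after CP, against 14.8, 14.8 and 33.4 CPM after saline. All 3 libraries 1 day after CP lay below saline (log2 -0.89, SE 0.27, adjusted p = 0.0261). Without saline replicate 3 the log2 was -0.44 (adjusted p = 0.237), and the call was also lost without CP replicate 2 or 3. Psmb8 differed by log2 -0.36 and Tap1 by -0.05 in the same comparison, neither past the threshold. On the normal diet the 3 lay between 0.02 and 0.26 at 1 day and between -0.08 and 0.52 at 3 days.

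The chemokines Cxcl9 and Cxcl10, which draw in T and NK cells through CXCR3, went opposite ways 1 day after CP on vitamin A. Cxcl10, inducible by type I interferon and by NF-kB, had 2.33, 3.29 and 2.79 CPM 1 day after CP and 0.991, 0.678 and 2.54 CPM 3 days after CP, against 0.319, 0.233 and 1.58 CPM after saline in vitamin A mice. At 1 day it lay above saline without overlap (log2 1.98, SE 0.68, adjusted p = 0.0489) and at 3 days it overlapped. In normal-diet mice it had 0.478, 1.53 and 1.68 CPM 1 day after CP and 1.35, 0.736 and 0.655 CPM 3 days after CP, against 0.586, 0.430 and 0.335 CPM after saline, not called (adjusted p = 0.198 and 0.437 at 1 and 3 days). Cxcl10 held 555 counts over all libraries and overlaps Art3 on the other strand, which held 71776, so its counts are uncertain, and its call was kept in 1 of 6 fits that left out a library. Cxcl9, induced chiefly by interferon gamma, had 0 counts in the 3 vitamin A libraries 1 day after CP, against 110 counts in the vitamin A saline libraries. Those saline libraries differed widely, at 1.28, 0.350 and 2.38 CPM, with replicate 3 highest. With 3 counts taken as the limit for the 3 libraries together, Cxcl9 was at least 26.2-fold lower 1 day after CP on vitamin A (adjusted p = 0.0121). The call was kept in each of the 6 fits that left out a library, while the low-count filter left Cxcl9 out of the fit of only the groups compared. In normal-diet mice Cxcl9 had 5 counts 1 day and 40 counts 3 days after CP, against 32 counts after saline, and was not called.

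Between 3 days and 1 day after CP, 0 of 39 members passed on either diet, where 1.22% of all genes were called higher and 0.217% lower on the normal diet and 2.55% and 1.69% on vitamin A (4.24% either way). At an unadjusted p under 0.05 there were 2 members (5.13%) on the normal diet and 4 (10.3%) on vitamin A, against 11.3% and 19.3% of all genes. DESeq2 called 1 member on each diet, where it called 3.44% of all genes on the normal diet and 8.93% on vitamin A. Rsad2 had the largest difference apart from Cxcl9, log2 1.36 on the normal diet (SE 0.40, adjusted p = 0.108) and 1.38 on vitamin A (SE 0.40, adjusted p = 0.0594). All 3 of its libraries at 3 days lay above those at 1 day on each diet. Intervals for Isg15 were -0.96 to 0.60 on the normal diet and -1.21 to 0.35 on vitamin A, both of which include 0.

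Vitamin A against normal diet gave 0 called members in saline mice, 1 day after CP or 3 days after CP, where 0.0104%, 0.238% and 0.00518% of all genes were called higher in those conditions and 0%, 0.228% and 0% lower (0.466% either way 1 day after CP). In saline mice 36 of 39 members lay above 0 with a median log2 of 0.49, against 0.01 over all genes, and 9 (23.1%) had an unadjusted p under 0.05, against 3.78% of all genes. DESeq2 also called 0 in each of the 3 conditions, where it called 0.088%, 2.58% and 0.0569% of all genes. Irgm1 had 23.7, 24.2 and 42.3 CPM on vitamin A, against 22.5, 16.6 and 15.8 CPM on the normal diet, with no overlap (log2 0.73, unadjusted p = 0.00163, adjusted p = 0.872). Usp18 had 22.6, 25.3 and 30.3 CPM on vitamin A, against 16.8, 15.1 and 17.3 CPM on the normal diet, again with no overlap (log2 0.68, adjusted p = 0.917). For 7 members all vitamin A saline libraries lay above all normal-diet ones, which held for 7.20% of all genes. Without saline replicate 3 on vitamin A the median was 0.24, and without replicate 2 it was 0.68. The mean log2(CPM + 0.5) of adipocyte markers was 3.46 to 5.59 in vitamin A saline libraries, against 1.08 to 3.75 in normal-diet ones. Their summed levels were 448 to 858 CPM and 405 to 570 CPM in that order. On both measures the groups overlapped, and the part of adipocytes in the members' values was not tested. The authors' deposited table for saline mice comes from the same libraries, so it is not separate support. It lists 14 members, all higher on vitamin A, and how many genes it lists in all is not given here. Of the 14, 1 had an adjusted p under 0.05. This was Usp18, with an adjusted p of 0.00371 and a log2 of 0.67 with the sign turned to vitamin A over normal. The authors' deposited tables for 1 and 3 days after CP list 0 members, and in all 3 of these tables the unadjusted p of every listed gene is below 0.05.

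The median log2 of vitamin A over normal was 0.07 at 1 day and -0.05 at 3 days, and 0 members had an unadjusted p under 0.05 at either time, against 11.1% and 3.76% of all genes. The difference between the diets in the change after CP was tested as an interaction. At 1 day 0 of 39 members passed, 4 (10.3%) had an unadjusted p under 0.05, against 7.79% of all genes, 36 lay below 0 and the median was -0.32. At 3 days 0 passed, 4 had an unadjusted p under 0.05, against 2.40% of all genes, 35 lay below 0 and the median was -0.45, a contrast added after the counts above were seen. The medians over all genes were -0.02 at 1 day and 0.00 at 3 days. Both interactions subtract the diet difference in the same saline libraries, given above, so they are not independent of it or of each other. With edgeR 0% of all genes passed in either interaction. DESeq2 called 0 members in each, and over all genes it called 66 higher and 54 lower at 1 day and 0 at 3 days. The smaller number of calls on vitamin A is thus not shown to be a difference between diets. The interaction of diet with time after CP also called 0, with 1 at an unadjusted p under 0.05 (2.56%, against 8.96% of all genes) and 0 by DESeq2, which called 0.45% of all genes.

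Levels between genes are compared per length, in the FPKM deposited by the authors (mean ± SD, n = 3). In normal-diet saline mice Bst2 had 30.988 ± 4.41 and Ifi27l2a 30.8 ± 3.57 FPKM, which do not differ beyond their spread. Psmb8 followed at 26.1 ± 1.45 and Ifi35 at 23.8 ± 2.06 FPKM, and Isg15 and Zbp1 stood at 2.99 ± 1.57 and 0.733 ± 0.135 FPKM. At 3 days after CP on the normal diet Ifi27l2a had 122 ± 22.3 FPKM and led Bst2 at 53.9 ± 5.74 FPKM, while Isg15 had 12.9 ± 2.57 and Zbp1 4.34 ± 0.889 FPKM. Oas3 and Cxcl9 were lowest in normal-diet saline mice, at 0.0659 ± 0.0336 and 0.140 ± 0.0529 FPKM.

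Promoter elements were set beside the calls. Of members with a promoter and a rise 1 day after CP on the normal diet, 5 of 10 held an ISRE core, against 11 of 20 without a rise. At 3 days these were 5 of 11 and 11 of 19.

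Few reads were counted for the 11 interferon genes looked at, and Ifna genes other than those named below were not looked at. Of 11 ligand genes, Ifnb1, Ifna1, Ifna2, Ifna4, Ifna5, Ifnl2 and Ifnl3 had 0 counts in all 18 libraries, which allows up to 3 counts, or 0.0871 to 0.154 CPM, in a library. Ifng had 22 counts in all, 12 of them in saline replicate 3 on vitamin A, and 0 in 14 libraries. Over the groups Ifng had 0 counts 1 day and 0 counts 3 days after CP on vitamin A, against 13 in vitamin A saline mice, and 0 and 2 counts 1 and 3 days after CP, against 7 after saline, on the normal diet. Ifne, an epithelial type I interferon, had 92 counts in all, with 30 and 10 counts 1 and 3 days after CP, against 3 after saline, on vitamin A. On the normal diet Ifne had 21 and 12 counts 1 and 3 days after CP, against 16 after saline, and it was not called in any comparison of CP with saline.

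Of 14 genes for interferon receptors and JAK-STAT parts, 1 rose and 1 fell 1 day after CP on the normal diet, 0 rose and 1 fell on vitamin A, and at 3 days 1 rose and 2 fell on the normal diet and 0 rose and 1 fell on vitamin A. Of all genes, 7.26% were called higher and 4.49% lower, 10.2% and 9.05%, 6.74% and 3.30%, and 4.32% and 1.67%, in that order. Receptor chains Ifnar1 and Ifngr1 were not called, at log2 0.40 and -0.11 3 days after CP on the normal diet. Irf8, a factor of myeloid and plasmacytoid cells, fell in the 4 comparisons, with log2 -0.53 at 1 day and -0.47 at 3 days on the normal diet, and -1.04 and -0.50 at 1 and 3 days on vitamin A.

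Cgas, the cytosolic DNA sensor, rose 1 day after CP (log2 2.25, SE 0.36, adjusted p = 0.000435 on the normal diet, log2 1.72, SE 0.35, adjusted p = 0.00179 on vitamin A) and at 3 days on the normal diet (log2 2.14, SE 0.36, adjusted p = 0.000679), and at 3 days on vitamin A its log2 was 0.98 (adjusted p = 0.112). Its adaptor Sting1 rose in the 4 comparisons, by log2 1.06 at 1 day and 1.01 at 3 days on the normal diet, and by 1.25 and 0.63 at 1 and 3 days on vitamin A. Of the 11 sensing genes 3 rose 1 day after CP on the normal diet and 4 on vitamin A, and at 3 days 3 rose and 1 fell on the normal diet and 2 rose on vitamin A. The shares of all genes called in these comparisons are those given with the receptor genes. Socs3, an inhibitor of JAK signalling driven chiefly by STAT3, rose by log2 1.85 at 1 day and 1.67 at 3 days on the normal diet, and by 3.46 and 2.75 at 1 and 3 days on vitamin A, and was the 1 of 8 feedback inhibitors called.

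A further 41 interferon-stimulated genes outside the set gave 10 higher and 0 lower 1 day after CP on the normal diet, 4 and 4 on vitamin A, and at 3 days 8 and 0 on the normal diet and 3 and 0 on vitamin A. Over all genes the shares called were 7.26% higher and 4.49% lower, 10.2% and 9.05%, 6.74% and 3.30%, and 4.32% and 1.67%, in that order. Their medians were 0.30, -0.08, 0.40 and 0.13 in that order. Ido1, Oas1g, Ifitm3 and Ifi207 led at 1 day on the normal diet, at log2 2.70, 2.14, 1.66 and 1.59. On vitamin A at 1 day the 4 genes called lower, named after their values were seen, were Tnfsf10, Tgtp2, Gbp4 and Gbp5, at -1.88, -1.60, -1.37 and -0.94. Of 14 antigen presentation genes 0 rose and 5 fell in that comparison. Among the 5 were the class I regulator Nlrc5 at -1.62, H2-T23 at -1.60, B2m, the class I light chain, at -1.17 and H2-K1 at -0.91. The 14 genes summed to 1217 to 1317 CPM there, against 1553 to 2538 CPM after saline, where replicate 3 was highest. Whether these calls hold without that library is not given here. On the normal diet the sum was 1220 to 1465 CPM 1 day after CP, against 1399 to 1478 CPM after saline. On vitamin A at 1 day 7 of 12 tested T and NK cell markers fell, and the part of those cells in these values was not tested.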

How the data were processed

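RNA of 18 whole bladders was sequenced, and raw counts for each gene were deposited by the authors. The tools named in the submitters' processing notes are featureCounts 1.5.0-p3, HISAT2 2.0.5 and DESeq2 1.20.0, and the build named is GRCm39. Roles, strandedness and handling of multiply aligned reads were not given in the sources used here. FPKM values were deposited by the authors, computed per gene length and library. The authors' deposited diet tables give log2 ratios of normal over vitamin A diet, which were turned round for printing, with p-values and adjusted p-values. Unnamed features, 0.474% to 0.810% of counts, were left out.

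The test was edgeR 4.0.16 in R 4.3.3 (robust quasi-likelihood test, TMM scaling, filterByExpr, 1 mean per group over all 18 libraries, 12 residual degrees of freedom) over 19323 genes, with Benjamini-Hochberg adjustment per contrast and a 2-sided threshold of 0.05. SE is the log2 ratio divided by the root of F, and intervals are 95%. Alternatives were DESeq2 1.42.0, RLE scaling, no filter, a fit of only the groups compared, a replicate block and leaving out each library. Labels name no separate litters or cultures, so p-values measure the spread between these libraries. The test was checked on simulated counts. An exact permutation test of 3 against 3 cannot go below p = 0.1. Floors and count ratios cover counting error only.

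The members and the other lists were chosen with earlier results of these data known. Values per library are given for up to 6 called members each way with the largest change and a mean log2 CPM of at least 0, and for Irf7, Isg15, Stat2, Irf1, Cxcl10 and Bst2. Other members are given by counts, ranges or log2 values, and lists of other genes by up to 4 called genes; 1 gene of those lists is not reported here. Values of Irf9, Usp18, Irgm1 and Ifit3 per library were added after their results were seen. File coordinates are GRCm39; promoters are RefSeq on GRCm38.p6, and no coordinates were converted. Shared 50-base windows were counted over GENCODE transcripts of that older build.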

Additional observations from a re-analysis of the deposited data

How the results depend on the processing

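Counts of called members were 18, 16, 20 and 7 with DESeq2, 14, 14, 17 and 5 with RLE scaling and 16, 12, 17 and 5 with no filter, for 1 day after CP on the normal diet, 1 day on vitamin A, 3 days on the normal diet and 3 days on vitamin A, against 14, 14, 17 and 5 in edgeR with TMM. For 3 days against 1 day, DESeq2 called 1 member on each diet and the fit with no filter 1 on vitamin A, where the main count was 0. Of all genes DESeq2 called 3.44% on the normal diet and 8.93% on vitamin A, and the fit with no filter 2.61% on vitamin A. For 3 days after CP on vitamin A, the fit of only the groups compared gave 1, and with it 0 of 38 members fell 1 day after CP on vitamin A, with Cxcl9 filtered out. That fit called 2.87% of all genes at 3 days and 19.7% at 1 day on vitamin A. Over all 19323 genes DESeq2 called 3087, 4598, 2674 and 1766 in the same order as the members, against 2271, 3727, 1940 and 1156 in edgeR. RLE scaling called 11.8%, 19.4%, 9.98% and 6.02% of all genes. The fit with no filter called 6.58%, 11.1%, 5.65% and 3.66% of 29679 genes. Leaving out 1 library gave 7 to 20, 6 to 12, 12 to 16 and 0 to 5 called members in the same order as above, and 0 in the time, diet and interaction contrasts. For the comparisons with saline these fits called 6.2% to 7.84%, 12.4% to 19.6%, 4.81% to 7.8% and 3.35% to 8.31% of all genes. Irf1 on vitamin A, not called in any fit, was at log2 -0.09 at 1 day and -0.06 at 3 days. Leaving out 1 library put it between -0.25 (without saline replicate 2) and 0.14 (without saline replicate 3) at 1 day. At 3 days it lay between -0.22 and 0.17 without those same libraries, and at 0.0038 without CP replicate 1. With a replicate block the counts were 14, 12, 17 and 3, where 10.8%, 18.3%, 9.16% and 5.43% of all genes were called. The labels give no pairing by number, and correlations of same-numbered libraries ran from -0.12 to 0.20, over 0.1 for every pair in 0 of 9 comparisons, and in 0 of 9 did every library correlate best with its own number. The cause of these shifts was not tested. With 3 libraries per group, small changes and genes with few counts such as Oas3, Cxcl9 and Cxcl10 are measured with wide error, and Ifit3, Ifit3b and Oas1a share sequence with close copies.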
